A study of Mus musculus with 9 samples.

Results

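The G2 and mitosis genes described here are 40 genes that cells express as they pass from the G2 phase of the cell cycle through division. They were chosen by symbol for their known roles and not by a measured value, but earlier results of these data were known by then. All 40 were found by identifier among the 29288 genes of the deposited count table. RNA was sequenced from intestinal epithelial cells (IECs) of 9 female wild-type C57BL/6J mice aged 7 to 10 weeks, to follow how the epithelium responds when natural killer T (NKT) cells are activated. Mice of the control group (n = 3) were injected intraperitoneally with PBS and sampled 18 h later. Mice of the 18h-αGal group (n = 3) were injected with 2 µg of α-galactosylceramide (αGalCer), a glycolipid antigen that NKT cells recognise on CD1d, and sampled after 18 h. The 72h-αGal group (n = 3) received the same dose and was sampled after 72 h. Epithelial cells from a crypt-enriched preparation of the proximal small intestine were sorted as live EpCAM+ Ter119- CD31- CD45- cells. The sort did not separate crypt cells from other epithelial cells. The RNA of each mouse formed 1 library. Controls were taken at 18 h alone, so at 72 h the treatment and the time of sampling cannot be told apart.

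Entry into mitosis is driven by cyclin-dependent kinase 1 bound to A- and B-type cyclins, and it is switched on by CDC25 phosphatases with help from Polo-like and Aurora kinases. Condensins then compact the chromosomes, kinetochores attach them to the spindle, and a checkpoint holds back the anaphase-promoting complex until every chromosome is attached. Transcripts of these genes rise late in the cycle under the transcription factors FOXM1 and B-MYB, and the DREAM complex represses them in resting cells. In the small intestine, division takes place in the crypts, among stem cells at the base and the transit-amplifying progenitors above them.

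Genes that peak in G2 and mitosis often carry a cell cycle homology region, the element to which the MuvB core of the DREAM and B-MYB complexes binds, and boxes bound by the activator NF-Y. Both were searched in RefSeq promoters (GRCm38.p6, from 250 bases before to 50 bases after each annotated start). Of the 40 genes, 33 matched, with 36 promoters. Foxm1, Kif20a, Cdc25c, Aurkb, Ccna2, Tpx2 and Smc4 did not match. The stretches of 120 bases just before the start are shown for the 6 matched genes with the smallest adjusted p at 18 h, so that their motifs can be read. Each runs 5′ to 3′ on the strand of its gene, and capitals mark TTTGAA or CCAAT in either orientation (TTCAAA and ATTGG are the reverse complements). Promoter positions are on GRCm38.p6 and cannot be set against the gene positions further on, which are on GRCm39.
Hmmr, chr11:40733438-40733557, minus strand: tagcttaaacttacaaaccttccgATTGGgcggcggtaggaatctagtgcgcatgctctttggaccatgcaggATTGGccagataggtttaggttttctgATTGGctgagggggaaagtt
Ube2c, chr2:164769809-164769928, plus strand: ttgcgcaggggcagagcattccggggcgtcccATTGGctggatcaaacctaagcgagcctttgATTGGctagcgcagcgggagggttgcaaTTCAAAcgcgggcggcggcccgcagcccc
Plk1, chr7:122159315-122159434, plus strand: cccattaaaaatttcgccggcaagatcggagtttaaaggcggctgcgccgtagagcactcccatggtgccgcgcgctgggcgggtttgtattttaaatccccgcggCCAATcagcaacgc
Birc5, chr11:117849117-117849236, plus strand: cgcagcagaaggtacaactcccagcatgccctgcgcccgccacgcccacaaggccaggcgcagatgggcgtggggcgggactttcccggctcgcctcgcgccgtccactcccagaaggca
Cenpe, chr3:135212443-135212562, plus strand: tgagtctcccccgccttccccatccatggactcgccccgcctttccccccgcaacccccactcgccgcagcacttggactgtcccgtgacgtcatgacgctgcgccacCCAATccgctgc
Bub3, chr7:131560250-131560369, plus strand: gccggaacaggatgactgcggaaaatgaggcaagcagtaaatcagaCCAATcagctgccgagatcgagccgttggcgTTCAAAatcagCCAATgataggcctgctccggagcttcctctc

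The Hmmr stretch held 3 NF-Y boxes, and that of Ube2c held 2 together with a TTTGAA in reverse orientation. In Bub3 a reversed TTTGAA lay between a pair of NF-Y boxes, whereas Plk1 and Cenpe each had 1 box close to the start. The Birc5 stretch held none of the motifs searched. Bub3 has an additional annotated start downstream, whose own 120 bases held none. In Hmmr and Plk1 the TTTGAA lay after the start instead, and windows of 30 bases around it are shown with the motif in capitals, which begins at base 9 (Hmmr) and base 31 (Plk1) of the transcript.
Hmmr, chr11:40733412-40733441, minus strand: agttgaggtaaaTTTGAAttcaggcgagct
Plk1, chr7:122159453-122159482, plus strand: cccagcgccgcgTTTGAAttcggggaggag

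TTTGAA occurred on either strand in 28 of the 36 promoters (77.8%), compared with 17.9% of all 32851 promoters in the table and 12.5% of the 14841 promoters of genes tested here. The variant TTCGAA was present in 4 (11.1%), against 1.56% of all promoters. CCAAT was present in 28 (77.8%), against 37.4%, and at least 2 copies were found in 52.8%, against 11.7%. The E2F-like words TTTCCCGC and TTTGGCGC, none of which contains another word searched, were found in none of the 36, against 1.57% of all promoters. The share was 2.61% among promoters of genes tested here. With shares this low, their absence from 36 promoters does not set these genes apart. Of the 9 genes called higher at 18 h, 7 had a promoter in the table, of which 5 held TTTGAA (Hmmr, Ube2c, Plk1, Bub3 and Kif20b) and 5 held CCAAT (Hmmr, Ube2c, Plk1, Cenpe and Bub3). Over all 33 matched members, 25 held TTTGAA and 25 held CCAAT. A match of letters is a description and not a measured binding site.

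**Figure D1:**
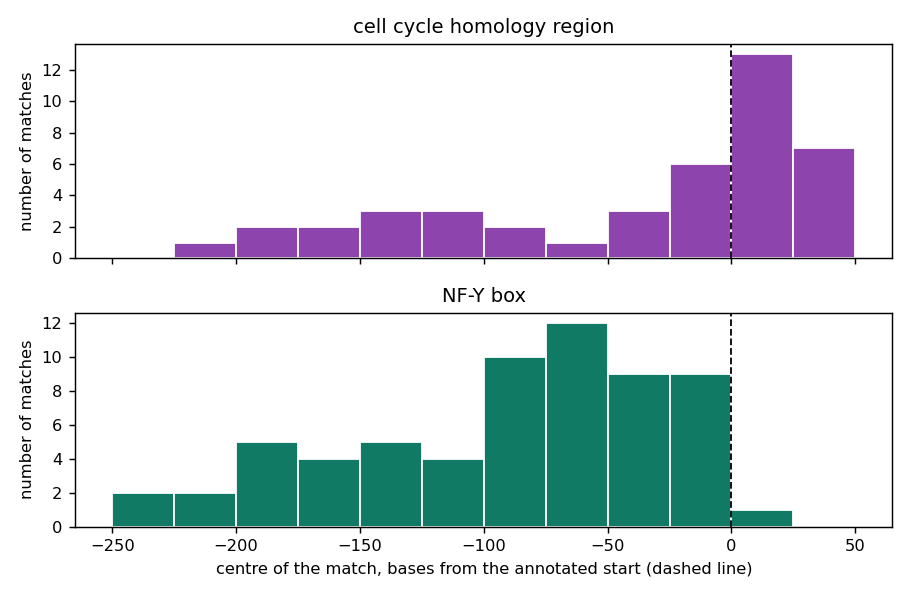
Positions of motif matches in the 36 RefSeq promoters of the G2 and mitosis genes, as the number of matches (vertical axis) in bins of 25 bases from the annotated start (horizontal axis, dashed line at the start). Of 43 matches to the cell cycle homology region (TTTGAA or TTCGAA), 29 were centred within 50 bases of the start and 9 from 125 to 25 bases before it. Of 63 matches to the NF-Y box (CCAAT), 19 and 35 were centred in these ranges, which overlap each other. Overlapping promoters of the same gene were counted separately.

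Libraries held between 8887861 (control 3) and 32722293 (control 1) counts. Read counts of the G2 and mitosis genes ranged from 53 to 24870 per library, and all 40 passed the filter on low counts. Epithelial markers (10 of 10 tested, summed level 5874 to 6964 CPM over the 9 libraries) matched the labelled cell type. Markers of lymphocytes (12 of 15 in the table, 2.14 to 12.4 CPM), endothelial cells (0.742 to 3.52 CPM) and stromal cells (1.20 to 5.23 CPM) were near 0. Those of myeloid cells reached 26.4 to 59.4 CPM, with Cd68 (12.4 to 42.1 CPM) and Cd14 (3.30 to 11.7 CPM) as the highest. The exons of some members overlap genes on the opposite strand, and whether reads were counted by strand is not given in the sources used here. Of the genes called at 18 h this concerns Ube2c (19.0% of its exon bases, by Tnnc2), Ccna2 (17.5%, by Exosc9), Foxm1 (6.13%, by Rhno1) and Plk1 (5.60%, by Gm44985). Tnnc2 was nearly unread, at 0 normalised counts in every control and a mean of 1.80 at 18 h, and Exosc9 had means of 349.6 in controls and 481 at 18 h. Among members without a call, 54.8% of the exon bases of Kif20a lie opposite Cdc23 and 25.2% of those of Aurka opposite Fam210b. Near-identical copies were a concern for Ccnb1, of whose 50-base words 18.2% also occur in another gene (most often Ccnb1-ps), Cdc20 (8.72%) and Plk1 (4.55%).

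At 18 h after αGalCer, 9 of the 40 genes (22.5%) were called higher than in controls at an adjusted p under 0.05, in a test of all 18933 genes that passed the filter, of which 3.27% were called higher. They were Hmmr, Ube2c, Plk1, Birc5, Foxm1, Cenpe, Bub3, Ccna2 and Kif20b. None was called lower, while 2.69% of all genes were. The log2 fold change was above 0 for 38 of 40 genes (47.6% of all genes), with a median of 0.53 over the members and -0.03 over all genes, and it ranged from -0.03 to 0.93. At an unadjusted p under 0.05 there were 26 members higher (10.5% of all genes) and 0 lower (10.3%). In 18 genes every 18h-αGal mouse lay above every control mouse (11.5% of all genes), 0 were wholly below (12.3%), and in the other 22 the groups overlapped. In bulk RNA of this kind, more dividing cells and more RNA per dividing cell cannot be told apart.

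**Figure D2:**
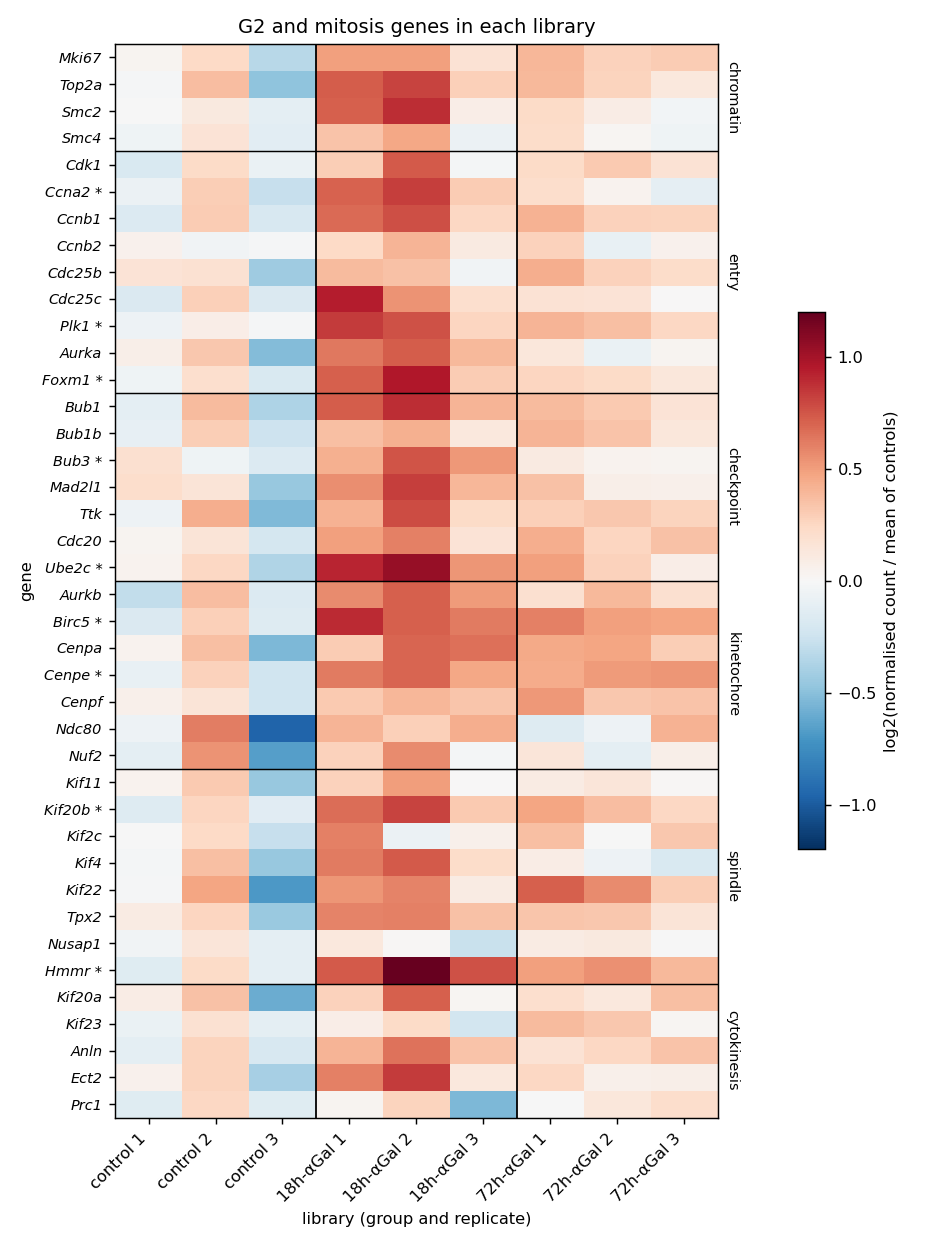
Normalised counts of the 40 genes in the 9 libraries, coloured by log2 of the ratio to the mean of the controls (red higher, blue lower), with genes in rows by role and libraries in columns by group and replicate; an asterisk marks genes called at 18 h. The columns 18h-αGal 1 and 2 are red in nearly every row, 18h-αGal 3 is paler, and control 3 is the bluest column, with the lowest value of all 9 libraries for 30 genes.

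Called genes were found in 4 of the 6 roles. In the order of the cycle, 3 of 9 genes of mitotic entry passed the test, 2 of 7 of the checkpoint and anaphase control, 2 of 7 of the centromere and kinetochore, and 2 of 8 of the spindle. None of the 4 genes of chromatin and proliferation marking and none of the 5 of cytokinesis did. Over all genes, 3.27% were called higher. At an unadjusted p under 0.05 in edgeR, 3 of the 4 and 2 of the 5 were higher (10.5% of all genes). With so few genes per role, a lack of calls does not set a role apart, and differences between roles were not tested. Kif20b was counted with the spindle and its paralog Kif20a with cytokinesis, so these counts depend on how roles were assigned. The median log2 fold change of a role was between 0.36 (cytokinesis) and 0.59 (entry). Values below are deposited normalised counts, always given for replicates 1, 2 and 3 in that order, and fold changes are on the log2 scale with their standard error (SE).

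Among the regulators of entry, Foxm1 (ENSMUSG00000001517, chr6:128339518-128353147 on the plus strand, GRCm39 as for all genes below) encodes the transcription factor that drives this program. It was read at 1121, 1338 and 1022 in controls and at 1908, 2259 and 1429 in 18h-αGal mice (log2 fold change 0.69 ± 0.16, adjusted p = 0.0215). Every treated mouse was above every control, although 18h-αGal 3 exceeded control 2 by little. Plk1 (ENSMUSG00000030867, chr7:121758646-121769108 on the plus strand), the Polo-like kinase that acts from mitotic entry to exit, rose from 1019.6, 1127 and 1053 to 1904, 1810.0 and 1279 (log2 fold change 0.65 ± 0.15, adjusted p = 0.019). The controls were tightly grouped for Plk1, and the treated mice were spread. Ccna2 (ENSMUSG00000027715, chr3:36619014-36626299 on the minus strand) encodes cyclin A2, which pairs with cyclin-dependent kinases in S phase and G2. Its values were 1928, 2485 and 1676 in controls and 3312, 3600.3 and 2509.8 at 18 h (log2 fold change 0.64 ± 0.16, adjusted p = 0.0333). Here 18h-αGal 3 was just above control 2, so the groups were separate by a narrow margin.

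Cdk1, the kinase at the centre of mitotic entry, was read at 579, 774 and 623 in controls and 809, 1099.5 and 647 at 18 h (log2 fold change 0.38 ± 0.19, adjusted p = 0.274), and the groups overlapped because 18h-αGal 3 fell among the controls. Its partner cyclin B1 (Ccnb1) had 964, 1329.8 and 941 in controls and 1726, 1842 and 1282 in treated mice, just outside the threshold (log2 fold change 0.59 ± 0.17, adjusted p = 0.0506). Cyclin B2 (Ccnb2), at 1006, 945 and 960.5 in controls and 1148, 1291 and 1046 at 18 h, had the smaller change of the B-type cyclins (log2 fold change 0.27 ± 0.14, adjusted p = 0.302), although its groups did not overlap. Aurka, a kinase of the centrosome and spindle poles, had 696, 828 and 461 in controls and 1026, 1098 and 865 at 18 h (log2 fold change 0.59 ± 0.19, adjusted p = 0.0896), again without overlap. For the phosphatases that activate CDK1, the log2 fold change was 0.24 ± 0.19 for Cdc25b and 0.60 ± 0.25 for Cdc25c, neither of which was called (adjusted p = 0.517 and 0.171). Differences between paralogs were not tested.

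Of the genes that restrain and then release anaphase, Ube2c (ENSMUSG00000001403, chr2:164611768-164620742 on the plus strand) changed most. It encodes the ubiquitin-conjugating enzyme that works with the anaphase-promoting complex. Its counts were 1389.6, 1609 and 1053 in controls and 2547, 2780.2 and 1955 in 18h-αGal mice (log2 fold change 0.85 ± 0.17, adjusted p = 0.0103, 1.80-fold), and the lowest treated mouse stood clearly above the highest control. Bub3 (ENSMUSG00000066979, chr7:131161880-131178553 on the plus strand) encodes a checkpoint protein that brings BUB1 and BUBR1 to kinetochores. It rose from 930.3, 785 and 725 to 1090.2, 1374 and 1164 (log2 fold change 0.58 ± 0.15, adjusted p = 0.0302), and it is a gene for which control 1, not control 2, was the highest control.

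Mad2l1, the checkpoint protein that binds CDC20, had 864, 832 and 544 in controls and 1103, 1329.5 and 982 at 18 h (log2 fold change 0.61 ± 0.19, adjusted p = 0.0675). Its groups were separate, but control 3 lay far below the other controls. Cdc20, the activator of the anaphase-promoting complex, had 662, 721 and 559 in controls and 909, 983 and 726 at 18 h (log2 fold change 0.44 ± 0.16, adjusted p = 0.132), with 18h-αGal 3 barely above control 2. For Bub1b, which encodes BUBR1, the values were 1136, 1493 and 1029 in controls and 1568, 1644 and 1329 at 18 h, and the groups overlapped (log2 fold change 0.32 ± 0.15, adjusted p = 0.259). Its paralog Bub1, a kinase of the checkpoint, had an estimate of 0.69 ± 0.20 and just missed the threshold (adjusted p = 0.0523), and the checkpoint kinase Ttk was at 0.49 ± 0.23 (adjusted p = 0.235).

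At the centromere, Birc5 (ENSMUSG00000017716, chr11:117740040-117746581 on the plus strand), which encodes survivin of the chromosomal passenger complex, rose from 351, 481 and 354 in controls to 735, 649 and 611 at 18 h (log2 fold change 0.76 ± 0.18, adjusted p = 0.0206). Cenpe (ENSMUSG00000045328, chr3:134918298-134979372 on the plus strand), a kinesin that carries chromosomes to the spindle equator, rose from 974, 1248 and 877 to 1587, 1676 and 1427 (log2 fold change 0.60 ± 0.14, adjusted p = 0.023). In both genes all treated mice exceeded all controls, and the SD of the treated group was no larger than that of the controls. Aurkb, the kinase of the passenger complex, had 534, 849.5 and 587 in controls and 975, 1079.7 and 934 at 18 h, separate groups and an adjusted p just outside the threshold (log2 fold change 0.61 ± 0.18, adjusted p = 0.0562). Ndc80, a subunit of the complex that holds microtubules, varied widely among the controls, at 235, 376 and 126, so that its treated values of 327, 300.0 and 333 overlapped them (log2 fold change 0.36 ± 0.31, adjusted p = 0.569). Its partner Nuf2 showed the same spread among controls (270.2, 425 and 185) and an estimate of 0.29 ± 0.27. The centromeric histone Cenpa and the kinetochore protein Cenpf had estimates of 0.56 and 0.35 and were not called (adjusted p = 0.115 and 0.153).

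The member with the largest change was a spindle gene, Hmmr (ENSMUSG00000020330, chr11:40592167-40624288 on the minus strand), whose product binds microtubules and shapes the spindle poles. It was read at 470.4, 611 and 478 in controls and 864, 1218 and 883 in 18h-αGal mice (log2 fold change 0.93 ± 0.17, adjusted p = 0.00598, 1.91-fold). Kif20b (ENSMUSG00000024795, chr19:34899752-34953149 on the plus strand), a kinesin of late mitosis, rose from 778, 1031 and 785 to 1378, 1516 and 1078 (log2 fold change 0.62 ± 0.16, adjusted p = 0.0351). Its groups were close, since 18h-αGal 3 was a little above control 2. Kif11, the motor that pushes spindle poles apart, had 1851, 2227 and 1312 in controls and 2174, 2539 and 1799 at 18 h with overlap (log2 fold change 0.28 ± 0.17, adjusted p = 0.406). Among the other spindle genes, Tpx2, an activator of Aurora A, had 0.52 ± 0.17 (adjusted p = 0.0759), and the kinesins Kif4, Kif22 and Kif2c had 0.55, 0.42 and 0.23. Nusap1, which bundles spindle microtubules, was at -0.03 ± 0.14.

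No gene of chromatin or proliferation marking was called. Mki67, the source of the Ki-67 proliferation antigen, had 11402, 13133 and 8815 in controls and 15681, 15679 and 12517 at 18 h (log2 fold change 0.40 ± 0.14, adjusted p = 0.116), with 18h-αGal 3 below control 2. Top2a, the topoisomerase that untangles sister chromatids, had 4289, 5598 and 3095 in controls and 7159, 7576 and 5278 at 18 h (log2 fold change 0.63 ± 0.20, adjusted p = 0.0845), likewise overlapping. Of the condensin subunits, Smc4 had 2023, 2362 and 1921 in controls and 2658, 2900.5 and 2008 at 18 h (log2 fold change 0.27 ± 0.15, adjusted p = 0.312), and its partner Smc2 had a larger estimate of 0.61 ± 0.18 (adjusted p = 0.0564). In cytokinesis, Ect2 and Anln, which set up the contractile ring, had estimates of 0.56 and 0.48 (adjusted p = 0.0971 and 0.071). The kinesins of the midzone, Kif20a and Kif23, had 0.36 and 0.05, and the midzone bundler Prc1 had -0.03 ± 0.19. Prc1 and Nusap1 were the only members with an estimate below 0, and both estimates were above 0 without control 2 or without 18h-αGal 3.

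**Figure D3:**
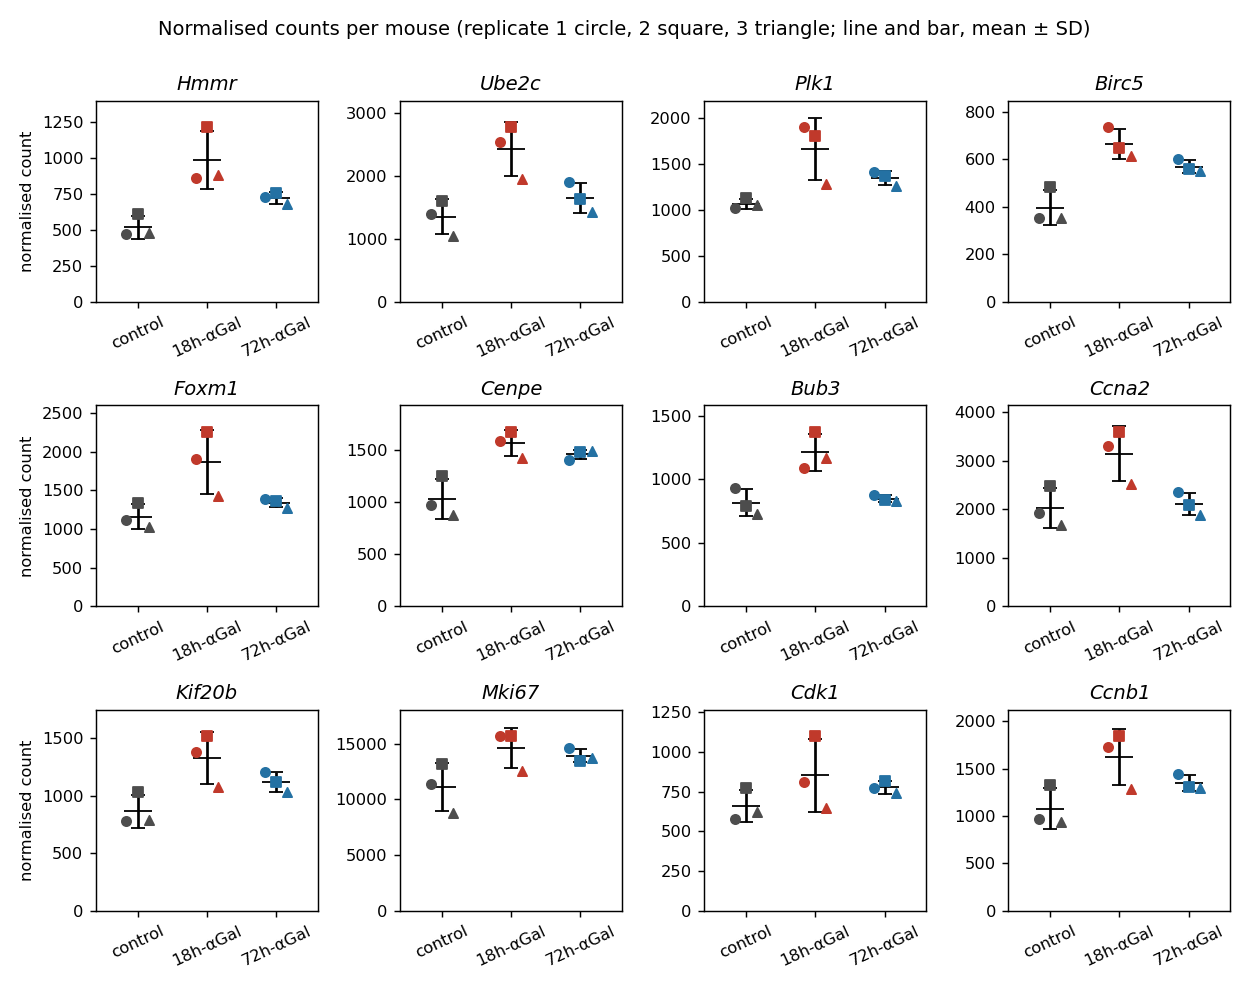
Normalised counts (vertical axes, starting at 0) of the 9 called genes and of Mki67, Cdk1 and Ccnb1 in each mouse by group (horizontal axes), with replicates 1, 2 and 3 as circle, square and triangle and mean ± SD of 3 mice as line and bar. For the 9 called genes all red points (18h-αGal) lie above all grey points (control), and for Mki67, Cdk1 and Ccnb1 the triangle of 18h-αGal 3 lies below the square of control 2.

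Within groups, the same libraries were high or low for most members. Control 2 was the highest control for 37 of the 40 genes and control 3 the lowest for 33, and 18h-αGal 2 was the highest treated mouse for 32 and 18h-αGal 3 the lowest for 34. The median over members, as log2 of the level relative to the control mean, was 0.00, 0.29 and -0.24 in controls 1 to 3, and 0.62, 0.74 and 0.26 in 18h-αGal 1 to 3. The median of 18h-αGal 3 was thus just below that of control 2. The number of calls depended on single libraries. Without 18h-αGal 2 only Hmmr was called, and without control 1 or without 18h-αGal 1 there were 3 calls, whereas without control 2 or without 18h-αGal 3 there were 16. The median log2 fold change lay between 0.36 and 0.70 when each library was left out in turn. Over 15 alternative analyses, the call of Hmmr was kept in all and that of Ube2c in 14, but no member passed a minimum log2 fold change of 1. Only 2 members were called when the fit held the 6 libraries of both groups alone, and DESeq2 called 15. The share of all genes called is not given for these alternatives or for those below, so the counts describe the listed genes alone.

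**Figure D4:**
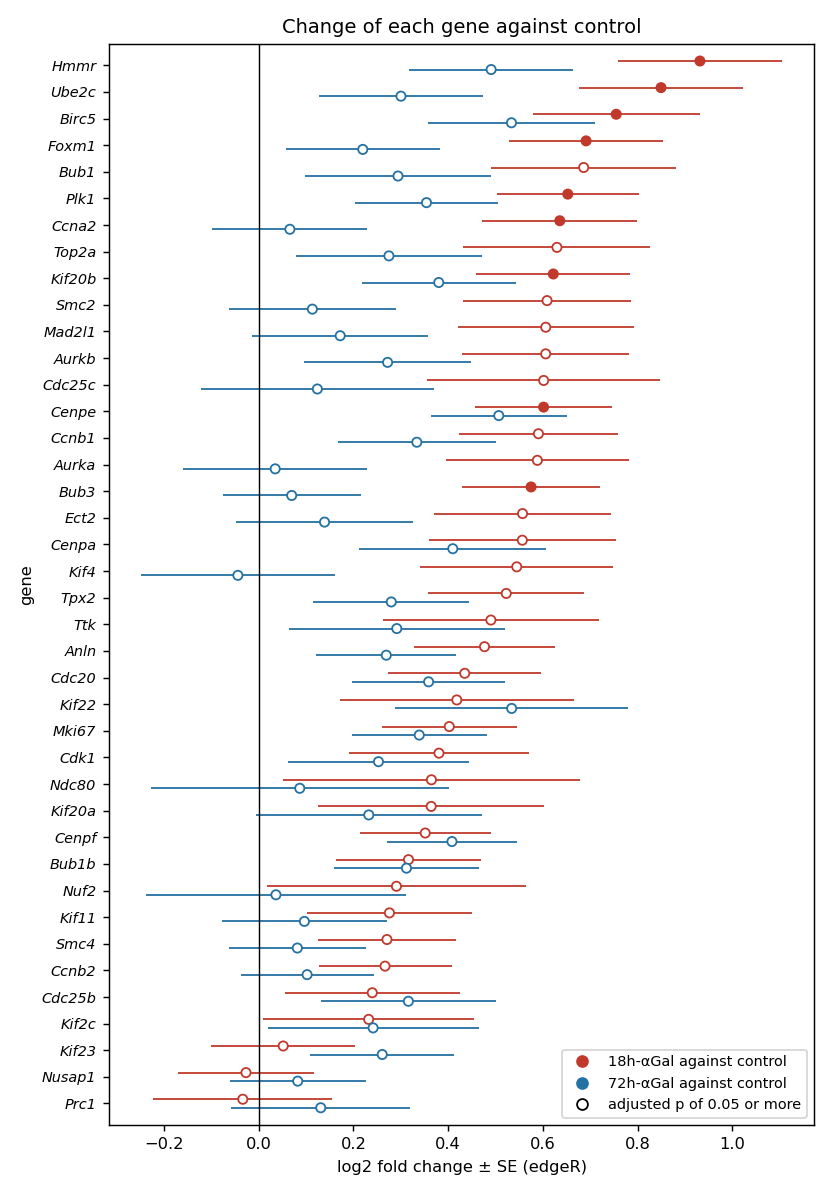
Estimated log2 fold change with SE (horizontal axis) of each of the 40 genes (vertical axis, ordered by the 18 h estimate) in 18h-αGal (red) and 72h-αGal (blue) against the same controls, with filled points for an adjusted p under 0.05. All filled points are red, 38 red points lie above 0, and most blue points lie between 0 and the red point of the same gene.

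Cell type markers differed between libraries alongside these genes. Enterocyte markers (10 of 10 tested) had median levels of -0.08, -0.66 and 0.74 in controls 1 to 3 and -0.25, -0.50 and 0.38 in 18h-αGal 1 to 3, on the same log2 scale relative to the control mean. They were therefore lowest in control 2 and 18h-αGal 2, where the mitotic genes were highest, and highest in replicate 3 of both groups. The 72h-αGal group did not show this order, since its enterocyte medians were -0.71, -0.22 and -1.36, lowest in 72h-αGal 3, which also had the lowest value of its group for 27 of the 40 members. Their summed level was 7474 to 17189.5 CPM in controls and 9482 to 14488 CPM at 18 h, with none at 0. Crypt stem cell markers (6 of 6 tested, among them Lgr5 and Olfm4) summed to 1508 to 3219 CPM in controls and 396 to 1529.6 CPM at 18 h, with a median log2 fold change of -1.23. All 6 estimates were below 0, none was called, and none of these genes was at 0. Paneth cell markers (6 of 6 tested) summed to 872 to 4305 CPM in controls and 1949 to 4227 CPM at 18 h. Control 3, the lowest for most members, was also the smallest library. The part of cell type and of library depth in the result was not tested.

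At 72 h, the genes lay closer to controls. Of the 40 members, 0 were called by edgeR and 0 by DESeq2, and over all genes 0% were called higher and 0.0264% lower in edgeR. The log2 fold change was still above 0 for 39 of 40 (50.3% of all genes), with a median of 0.27 against 0.00 for all genes. At an unadjusted p under 0.05 there were 9 members higher in edgeR (2.36% of all genes) and 7 in DESeq2, and 0 lower in either (3.58% of all genes in edgeR). In no member were all 72h-αGal mice below all controls (6.30% of all genes). They were all above in 8 (6.36% of all genes), namely Mki67, Cdc25b, Plk1, Cdc20, Birc5, Cenpe, Cenpf and Hmmr. Both comparisons use the same 3 controls, so their estimates are not independent. Enterocyte markers summed to 4825 to 9110 CPM at 72 h, with all 10 estimates below 0 against controls and none called, and crypt stem cell markers to 1993 to 3429.7 CPM, with none at 0 in either list. Their part in the 72 h values was not tested.

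The smallest unadjusted p values at 72 h belonged to Cenpe, Birc5 and Cenpf. Cenpe had 1406, 1476 and 1490.2 at 72 h, close to its 18 h values and above all controls, but the difference did not pass the test (log2 fold change 0.51 ± 0.14, adjusted p = 0.701). Birc5 had 600.0, 557 and 549 (log2 fold change 0.53 ± 0.18, adjusted p = 0.81). Cenpf, whose 3 controls had 954, 1018 and 775, was at 1140.0, 1204 and 1156 at 18 h and 1310.1, 1148 and 1164 at 72 h, and its estimates were 0.35 and 0.41. Hmmr had 733, 760.5 and 681, between controls and 18h-αGal mice without overlap with either (log2 fold change 0.49 ± 0.17, adjusted p = 0.81). For other genes the 72 h values fell among the controls. Ccna2 had 2349, 2095 and 1884 (log2 fold change 0.07 ± 0.16, adjusted p = 0.983), Bub3 had 876, 836 and 832 (log2 fold change 0.07 ± 0.15, adjusted p = 0.98) and Aurka had 729, 625 and 675 (log2 fold change 0.04 ± 0.19, adjusted p = 0.999). Kif4 was the only member with an estimate below 0 at 72 h (-0.04 ± 0.20). Without control 3 the estimate was above 0 for 31 of the 40 members in place of 39.

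Between these patterns lay Plk1 with 1412, 1374 and 1265 at 72 h (log2 fold change 0.35 ± 0.15, adjusted p = 0.826), Foxm1 with 1391, 1359.5 and 1273 (log2 fold change 0.22 ± 0.16, adjusted p = 0.898) and Ube2c with 1898, 1639 and 1426 (log2 fold change 0.30 ± 0.17, adjusted p = 0.879). Kif20b had 1201, 1120.5 and 1027, just overlapping control 2. Other genes of the cycle lay above the controls or overlapped them. Mki67 was above all controls at 14621, 13480.0 and 13709. The groups overlapped for Top2a at 5670.1, 5195 and 4730.2, Cdk1 at 770.3, 820.0 and 742 and Ccnb1 at 1442, 1305 and 1299. They also did for Ccnb2 at 1175, 913 and 1009, Aurkb at 753, 858 and 749.9, Bub1b at 1620.5, 1547 and 1344 and Mad2l1 at 953, 785 and 781. Cdc20 was at 875, 775 and 825, above all controls, while Ndc80 (221, 235 and 328), Kif11 (1921, 1989.9 and 1818) and Smc4 (2446, 2134 and 2035) overlapped them. The 3 mice of this group differed little, with medians over members of 0.36, 0.29 and 0.22 relative to the control mean.

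Compared directly, 2 of 40 members were called lower at 72 h than at 18 h (5%, against 6.04% of all genes called lower, a share near the background), and 0 were called higher in edgeR or DESeq2 (4.18% of all genes in edgeR). The genes were Bub3 (log2 fold change -0.51 ± 0.15, adjusted p = 0.0388) and Ccna2 (log2 fold change -0.57 ± 0.16, adjusted p = 0.039), and in both every 72h-αGal mouse was below every 18h-αGal mouse. At an unadjusted p under 0.05 there were 10 members lower (12.8% of all genes) and 0 higher (11.4%). The estimate was below 0 for 33 of 40 (46.6% of all genes), with a median of -0.23 against 0.05 for all genes. In 13 genes the groups did not overlap, all of them lower at 72 h (16.3% of all genes, and 16.6% were apart and higher). Foxm1, Ube2c and Aurka were among these, with -0.47 ± 0.16, -0.55 ± 0.17 and -0.55 ± 0.19, but were not called (adjusted p = 0.0809, 0.0564 and 0.0858). Cenpe and Bub1b had estimates near 0 (-0.09 and -0.00434). Both calls were sensitive to single libraries, since 0 members were called without 18h-αGal 1, 18h-αGal 2 or any library of the 72h-αGal group, 1 without control 1, 5 without control 3 and 7 without 18h-αGal 3. The comparison shares its 18h-αGal libraries with that against controls.

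The members differed widely in level. Per kilobase of exon, Mki67 was the most abundant in controls at 1083 ± 212 normalised counts (SD, n = 3), followed by Ccna2 (497 ± 101), Top2a (475 ± 137), Ccnb2 (437 ± 14.2), Ube2c (417 ± 86.4) and Plk1 (373 ± 19.2). Mki67 stood apart from this group, whereas Ccna2, Top2a, Ccnb2 and Ube2c lay within the spread of each other. The lowest were Cenpa (50.2 ± 15.0), Nuf2 (44.2 ± 18.3), Cdc25c (36.1 ± 6.92) and Ndc80 (35.6 ± 18.2), which also overlapped. At 18 h the level per kilobase was 769 ± 138 for Ccna2, 749 ± 131 for Ube2c, 732 ± 134 for Top2a and 523 ± 55.4 for Ccnb2. Lengths were taken as the union of all annotated exons, so that a gene with long or rare exons appears lower.

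Another list of mitosis genes was drawn up from the same pathways (77 in the table, 76 tested), also with earlier results of these data known. At 18 h, 9 of the 76 were called higher (11.8%, against 3.27% of all genes) and 0 lower (2.69% of all genes), with a median log2 fold change of 0.43. They were Tacc3, Zwint, Ube2s, Cdca3, Melk, Gtse1, Nsl1, Mis12 and Mybl2. Tacc3, which stabilises spindle microtubules, had 566, 543 and 423 in controls and 1004, 959 and 753 at 18 h (log2 fold change 0.83 ± 0.18, adjusted p = 0.0146). Zwint, a kinetochore protein, had 730.0, 534 and 566 in controls and 1004, 977 and 918 at 18 h (log2 fold change 0.67 ± 0.15, adjusted p = 0.0197). Ube2s extends the ubiquitin chains that UBE2C starts, and it had 830.5, 925 and 794 in controls and 1277, 1471 and 1137 at 18 h (log2 fold change 0.61 ± 0.15, adjusted p = 0.0226). Cdca3 (log2 fold change 0.77 ± 0.19, adjusted p = 0.0253) and the kinase Melk (log2 fold change 0.66 ± 0.16, adjusted p = 0.0289) rose likewise, and in all 9 genes the groups did not overlap. Over the 77 genes, every 18h-αGal mouse lay above every control mouse in 24 (11.5% of all genes). In 0 of them were all treated mice below all controls (12.3% of all genes), and in 53 the groups overlapped. Without 18h-αGal 1 or 18h-αGal 2 none of the 76 was called. The count was 2 without control 1, 4 without control 3, 5 without 72h-αGal 1 or 72h-αGal 2, and 14 without 18h-αGal 3. At 72 h against controls 0 were called in edgeR, with 9 higher at an unadjusted p under 0.05 (2.36% of all genes). Against 18 h, 4 were called lower (5.26%, against 6.04% of all genes, a share near the background), namely Melk, Gtse1, Cdc27 and Spc24, with 0 called without 18h-αGal 2 or 72h-αGal 3, 1 without control 1, 18h-αGal 1 or 72h-αGal 2, and 2 without 72h-αGal 1.

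The brakes of the cycle, 20 genes that slow or stop division, moved in both directions. At 18 h Ccng1 and Rb1 were called higher (2 of 20, with 3.27% of all genes) and Btg2 lower (1 of 20, with 2.69% of all genes), with a median of 0.21 over the list. Ccng1, a p53 target, had 2078, 2201 and 1662 in controls, 2604, 5182 and 3855 at 18 h and 1498, 1828 and 1742 at 72 h (log2 fold change 0.97 ± 0.21, adjusted p = 0.0173 at 18 h). Rb1, the retinoblastoma gene, which holds back E2F factors, had 2669, 2507 and 2719.7 in controls, 3084, 3651 and 4138 at 18 h and 2105, 2517 and 1951 at 72 h (log2 fold change 0.47 ± 0.13, adjusted p = 0.0429 at 18 h). Btg2, an antiproliferative gene, fell from 7408, 9516 and 7998 to 4824, 5748 and 6525 (log2 fold change -0.54 ± 0.13, adjusted p = 0.0204) and was at 8774, 8462 and 8331 at 72 h. The calls of Ccng1 and Rb1 were both lost without control 1, without 18h-αGal 2 or without 18h-αGal 3, 1 of them was lost without 72h-αGal 1, and that of Btg2 was lost without control 2, 18h-αGal 1 or 18h-αGal 2.

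Cdkn1a, which encodes the CDK inhibitor p21, had 1678, 1471 and 2377 in controls and 2154, 2379 and 3236 at 18 h without a call (log2 fold change 0.50 ± 0.19, adjusted p = 0.134). Its 72 h values of 1165, 1322 and 974 were below all others, and it was called lower than at 18 h (log2 fold change -1.16 ± 0.19, adjusted p = 0.00214). Rb1, Ccng1 and Cdkn1c were also called lower at 72 h than at 18 h, which makes 4 of 20 (6.04% of all genes). Btg2 and Cdkn1b were called higher (2 of 20, with 4.18% of all genes), of which 1 call was left without any library of the 72h-αGal group or without 18h-αGal 2 or 18h-αGal 3. Wee1, the kinase that keeps CDK1 inactive, had 947, 990.0 and 844 in controls, 921, 734 and 551 at 18 h and 1183, 906 and 1139 at 72 h, and it was not called in any comparison (log2 fold change -0.32 ± 0.18, adjusted p = 0.349 at 18 h).

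Genes of S phase (44 genes) had a median log2 fold change of 0.33 at 18 h, smaller than the 0.53 of the G2 and mitosis genes, but the difference between the lists was not tested. Only Rrm2 was called (1 of 44, or 2.27%, against 3.27% of all genes called higher). It encodes the small subunit of ribonucleotide reductase, and its values were 688, 659.7 and 552 in controls, 1529, 1498 and 1089 at 18 h and 678, 838 and 599 at 72 h (log2 fold change 1.12 ± 0.18, adjusted p = 0.00212 at 18 h). It was called lower at 72 h than at 18 h (log2 fold change -0.96 ± 0.18, adjusted p = 0.0038). In 18h-αGal 3 the median of the S phase genes was below the control mean, at -0.11, whereas that of the G2 and mitosis genes was above it, at 0.26.

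**Figure D5:**
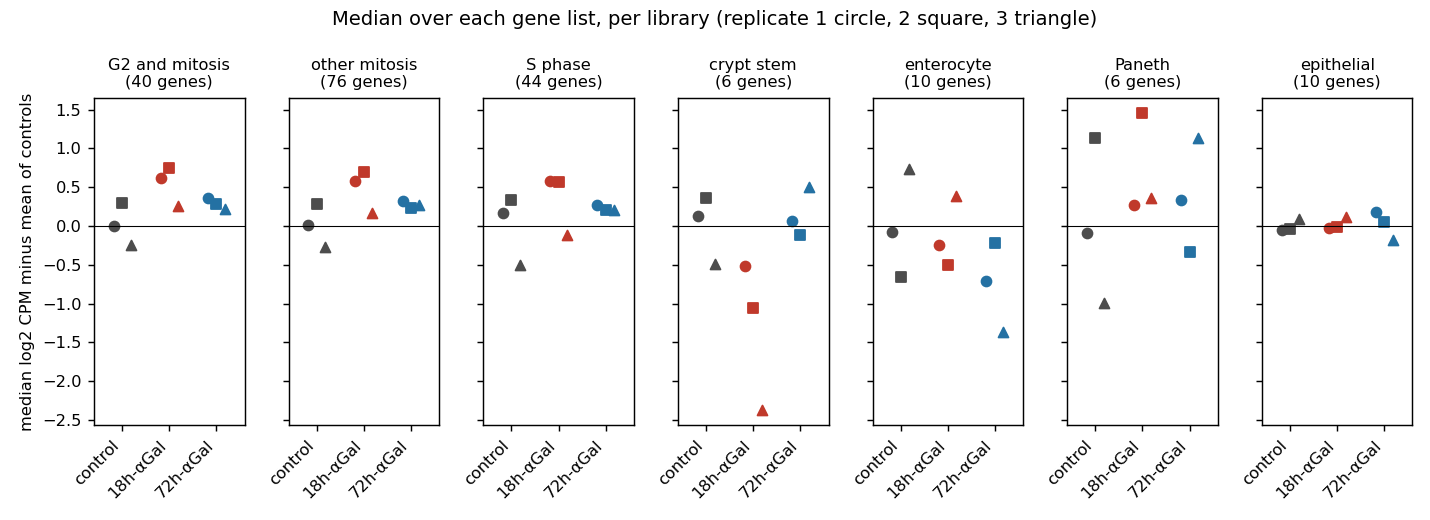
Median over each gene list of the log2 CPM minus the control mean (vertical axis), 1 point per library, in control (grey), 18h-αGal (red) and 72h-αGal (blue), with replicates 1, 2 and 3 as circle, square and triangle. The G2 and mitosis genes of 18h-αGal mice lie at 0.62, 0.74 and 0.26, the crypt stem markers of the same mice at -0.52, -1.06 and -2.37, and the epithelial markers between -0.18 and 0.18 in all libraries.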

How the data were processed

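The authors prepared ribosomal RNA-depleted directional libraries (100 bp reads) and mapped them with HISAT2. The submitters' processing notes name featureCounts, Subread, DESeq2 1.42.0 and GRCm38 (mm10), whereas the methods of the study name GRCm39. The annotation release and the strand setting are not given in the sources used here. The authors deposited raw read counts per gene and library, and a normalised signal that equalled the count divided by 1 factor per library, called normalised count here. It is not corrected for gene length.

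Members were matched by Ensembl identifier through GENCODE vM39 (GRCm39), in which 28480 of 29288 identifiers were found and 808 were not. Raw counts were tested with edgeR 4.0.16 in R 4.3.3: filterByExpr (18933 genes kept), TMM scaling and a robust quasi-likelihood model with 1 mean for each of the 3 groups, fitted to all 9 libraries, with 3 contrasts and Benjamini-Hochberg adjustment over all genes tested. The threshold for a call was an adjusted p under 0.05. SE was derived from the F statistic. Library and marker levels are CPM, with a prior count of 2 on the log2 scale. Each p-value sets a difference between groups against the spread between mice within groups, 3 per group. That spread was estimated over all 9 libraries and moderated across genes. Depth limits low genes through counting error. The script was tested on simulated data, but the share of small changes that it recovered is not given here. Alternatives were size factors of DESeq2 in edgeR, no filter, DESeq2, a fit of the compared groups alone, a replicate block, no robust estimation, a minimum log2 fold change of 1, and leaving out each library in turn.

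The members and lists were chosen with earlier results of these data known, so no p-value over a list is given. Values in every library are given for genes called in any comparison and for 16 genes that stand for the roles. Of the other lists, at most 5 called genes per direction were described with values, with Cdkn1a and Wee1 in any case. Smallest adjusted p came first. Lin54 and 7 cell type markers were not analysed here. Words of 50 bases from the annotated transcripts of each member were searched in all other annotated genes.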

Additional observations from a re-analysis of the deposited data

How the results depend on the processing

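Counts below refer to an adjusted p under 0.05 unless stated. The share of all genes called under each alternative is not given beside them, so they cannot be set against a background. Of the 40 G2 and mitosis genes, 9 were called higher at 18 h against control, which became 20 without the filter on low counts, 15 with DESeq2, 2 with the compared groups alone in the fit, and 0 with a minimum log2 fold change of 1. The count ranged from 1 to 16 when each library was left out in turn. For the other mitosis genes the 9 calls became 14 without the filter, 1 with the compared groups alone and 0 with the minimum fold change, with a range of 0 to 14 over left-out libraries. The 2 brakes called higher became 1 with DESeq2 size factors, with the compared groups alone and without robust estimation, and 0 with the minimum fold change (0 to 3 over left-out libraries). The 1 called lower became 0 with the compared groups alone and with the minimum fold change (0 to 1).

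For 72 h against 18 h, the 2 members called lower became 7 without the filter, 5 with the compared groups alone, 1 without robust estimation and 0 with the minimum fold change (0 to 7 over left-out libraries). The other mitosis genes called lower (4) became 7 with DESeq2 and 0 with the minimum fold change (0 to 6), and those called higher (0) became 1 without the filter (0 to 2). Brakes called higher (2) became 0 and brakes called lower (4) became 2 with the minimum fold change (1 to 3 and 3 to 4 over left-out libraries). The cause of these shifts was not tested, except that the minimum fold change removes smaller changes by construction.

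Replicate numbers recur in each group, but the mice differ. Over all genes tested, deviations of same-numbered libraries from their group means had correlations between -0.15 and 0.11, so the numbers were not taken as pairs. The members did share an order in 2 groups. Replicate 2 was highest for 37 of the 40 in controls and 32 in 18h-αGal mice, and replicate 3 lowest for 33 and 34. In the 72h-αGal group replicate 1 was highest for 28 and replicate 3 lowest for 27. The source of this order was not tested. With the replicate block, 11 members and 1 brake were called higher at 18 h, and at 72 h against 18 h 2 other mitosis genes were called lower and 1 brake higher. The log2 fold change of Bub1b at 72 h against 18 h was 0.00189 with the block and -0.0885 to 0.0667 over left-out libraries.

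Over all 40 members, the sign turned under at least 1 alternative for 4 at 18 h against control, 9 at 72 h against control and 8 at 72 h against 18 h, none of which was called in that comparison. At 18 h, leaving out each library in turn gave -0.0522 to 0.17 for Kif23, -0.00889 to 0.37 for Kif2c, -0.12 to 0.0782 for Nusap1 and -0.21 to 0.16 for Prc1. At 72 h against control it gave -0.0527 to 0.25 for Ccna2, -0.16 to 0.23 for Aurka, -0.00503 to 0.19 for Bub3, -0.00332 to 0.30 for Mad2l1, -0.20 to 0.53 for Ndc80 and -0.0813 to 0.29 for Kif11, with Ect2, Kif4 and Nuf2 as the other members that turned. At 72 h against 18 h it gave -0.29 to 0.10 for Cdk1 and -0.19 to 0.0192 for Cdc20, and Cdc25b, Kif20a, Kif22, Kif2c and Prc1 turned besides these and Bub1b. The median log2 fold change over members kept its sign in all 3 comparisons over left-out libraries (0.36 to 0.70, 0.13 to 0.43 and -0.32 to -0.13).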
